A study of Drosophila melanogaster with 2 samples.

Results

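The genes described here are 10 Drosophila melanogaster genes chosen for their roles in the Malpighian tubule: Uro, ry, ct, Irk1, Irk2, Irk3, Ncc69, Lkr, CapaR and ZnT35C. Their regions were taken from maps of where the nuclear receptor Hnf4 was found on the genome. A region was counted for a gene when its summit, the position of its highest signal, lay in the gene body or within 2 kb of it. By that rule the genes held 9 of the 5817 peaks in the authors' optimal list, a thresholded list made from both replicates. A peak in that list need not overlap a listed region of each replicate, and 5651 of the 5817 did. The genes also held 63 of 30000 regions in the relaxed list of the pooled replicates, 69 of 29999 in that of replicate 1 and 59 of 30000 in that of replicate 2. All 10 genes were found in the annotation.

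The study used chromatin immunoprecipitation with sequencing on a single fly strain, Hnf4-GFP, whose inserted transgene makes Hnf4 with green fluorescent protein joined to its C terminus. Whole larvae of both sexes were pooled as they wandered at the end of the third instar (age unknown per the labels), and the antibody is given as anti-GFP in the labels' description and as Hnf4 in their antibody field. The 2 samples are biological replicates of this one group, so there is no contrast between conditions. Neither sample is of isolated tubules, and no untagged fly is among the samples. A region at a tubule gene can come from any tissue of the larva in which Hnf4 binds there, and the tissue was not tested. The files used here hold regions and no read counts, so the depth of each replicate is unknown.

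The Malpighian tubules are the renal organs of insects. Their principal cells, driven by a proton pump, move cations into the lumen, while the smaller stellate cells carry chloride and water, and peptide hormones set the rate of both. The tubules also handle purine waste and store metals and pigment precursors. Hnf4 belongs to the nuclear receptor family, whose vertebrate relatives act in liver, gut and kidney, and in flies it is known for regulating lipid and glucose metabolism.

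The sequences at the summits of the 5 optimal peaks below show the DNA under the peaks of 4 of the 5 genes with one, in dm6 and on the plus strand, with 100 bp on either side of the summit. Capitals mark letters that match a searched motif, and where a line has none, no searched motif was found. The peaks are the strongest 2 of Irk1 (chr3R:23175532-23175732 and chr3R:23173452-23173652), the only one of ct (chrX:7651673-7651873), the one upstream of ry (chr3R:13030682-13030882) and the one downstream of Lkr (chr3L:5512043-5512243). The Ncc69 peak lies over an untranslated region and is not printed.
Irk1 strongest: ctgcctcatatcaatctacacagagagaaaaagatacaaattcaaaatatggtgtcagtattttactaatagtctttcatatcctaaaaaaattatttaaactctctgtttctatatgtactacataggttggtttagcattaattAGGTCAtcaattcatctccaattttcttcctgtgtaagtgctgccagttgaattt
Irk1 next: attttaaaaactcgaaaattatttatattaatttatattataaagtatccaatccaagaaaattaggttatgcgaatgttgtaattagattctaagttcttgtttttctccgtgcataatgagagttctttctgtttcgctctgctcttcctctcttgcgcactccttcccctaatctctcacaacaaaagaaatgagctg
ct: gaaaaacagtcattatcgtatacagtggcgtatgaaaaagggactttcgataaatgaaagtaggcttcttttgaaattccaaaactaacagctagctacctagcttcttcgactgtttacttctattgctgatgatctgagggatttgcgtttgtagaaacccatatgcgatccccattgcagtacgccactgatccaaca
ry: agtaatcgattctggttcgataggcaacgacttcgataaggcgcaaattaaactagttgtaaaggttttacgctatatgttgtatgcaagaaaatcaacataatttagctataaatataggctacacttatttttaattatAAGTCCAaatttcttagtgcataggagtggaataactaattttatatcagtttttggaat
Lkr: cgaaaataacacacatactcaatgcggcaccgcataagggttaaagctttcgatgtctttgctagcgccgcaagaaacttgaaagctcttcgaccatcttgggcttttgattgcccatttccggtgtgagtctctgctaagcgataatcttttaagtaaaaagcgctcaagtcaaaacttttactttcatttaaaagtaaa

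Of the 10 genes, 5 had an optimal peak, against 33.0% of 13945 protein-coding genes on the nuclear chromosomes (4604 genes) by the same rule. The genes with a peak were ry, ct, Irk1, Ncc69 and Lkr, and those without were Uro, Irk2, Irk3, CapaR and ZnT35C. With 10 genes, the count is a description and no more. The rule favours long genes, and length runs with the calls: 4 of the 5 members of at least 10 kb had a peak against 57.0% of all such genes, and 1 of the 5 shorter members did against 29.1%. Of the 9 peaks, 7 lay inside a member's body and 2 outside it, and only 3 of the 5 genes, Irk1, ct and Ncc69, were also nearest to their strongest peak by transcription start site (TSS). Signal values are the authors' and measure enrichment, and they serve here to describe and rank regions within a list. Their median was 151 over the 9 member peaks (78.8 to 620) and 114 over all optimal peaks (66.6 to 3161). The optimal list is the 5817 strongest regions of the pooled list, so the other 54 pooled regions at the members all lie below a value of 66.6.

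Irk1 held the most optimal peaks and the strongest of the members. Irk1 (FBgn0265042, chr3R:23168317-23185642, plus strand) encodes an inward rectifier potassium channel, a membrane protein that passes potassium more easily into a cell than out of it, and its 5 optimal peaks are a number reached by 1.84% of genes (256 of 13945) and by 226 of the 1977 genes of at least 10 kb. Its strongest peak, with its summit in an intron 7.32 kb from the first Irk1 TSS, had a signal value of 620 in the pooled list, 361 in replicate 1 and 267 in replicate 2. It ranked 108 among all pooled regions, 115 in replicate 1 and 112 in replicate 2. A peak as strong was found at 1.44% of genes (201). The next, at 5.24 kb, was 321 bp upstream of an internal Irk1 TSS and had 291 pooled, 186 in replicate 1 and 109 in replicate 2. The other 3 lay at 6.63 kb (153 pooled, 97.6 in replicate 1, 61.9 in replicate 2), 8.58 kb (129, 63.3 and 58.7) and 8.30 kb (78.8 pooled and 50 in replicate 1). The peak at 8.30 kb overlapped no listed region of replicate 2. Thus 4 of the 5 were listed in both replicates, and the order of the strongest 3 was the same in each.

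The Irk1 peaks form a close cluster. The 5 summits lie in introns and span 3342 bp, with gaps of 1397, 683, 983 and 279 bp, and fall in a part of the gene with an internal TSS at 5.56 kb and the next at 10.3 kb. Runs of 5 optimal summits at least as close occurred 22 times on the nuclear chromosomes and took in 74 of the 5803 summits there, or 1.28%. The overlapping gene CG46310, on the same strand, lies within 2 kb of all 5 peaks, so the rule does not assign them to Irk1 alone. Weaker regions lay along the gene and its flanks: 15 further pooled regions with signal values from 15.9 to 64.3, the highest of them just under the lowest optimal value of 66.6. In all, Irk1 had 9.38 pooled regions per 10 kb, as many or more being found at 4.15% of genes, and the mean over all genes was 2.50 per 10 kb. The plot of the 5 peaks shows the same order in the pooled list and replicate 1, and in replicate 2 for the peaks listed there.

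**Figure D1:**
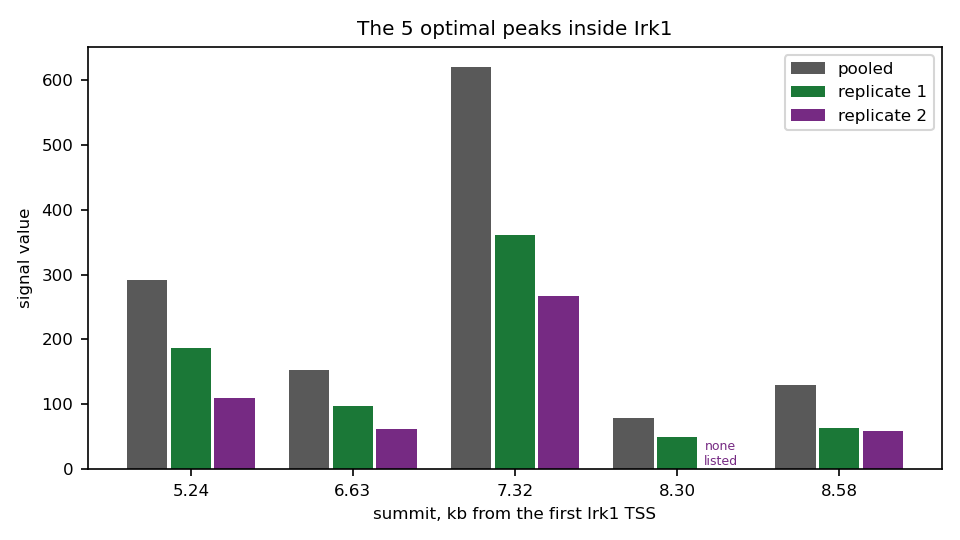
Signal values (linear axis) of the 5 optimal peaks inside Irk1, ordered by the distance of the summit from the first TSS in kb, with a bar each for the pooled list, replicate 1 and replicate 2. The peak at 7.32 kb is the highest in each list (620, 361 and 267), and the peak at 8.30 kb has no listed region in replicate 2.

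The other inward rectifiers had none. Irk2 (FBgn0039081, chr3R:23513617-23519445, minus strand) and Irk3 (FBgn0032706, chr2L:18711071-18713748, minus strand), which encode related channels, held no optimal, pooled, replicate 1 or replicate 2 region, and they are the 2 members with no region in any list. The nearest optimal summit to Irk3 lay 2341 bp from its body, just outside the 2 kb limit, 42 bp upstream of the TSS of Faf2, with a signal value of 187. That nearest to Irk2 lay 5044 bp away at 83.1. A gene with no listed region is not thereby shown to lack Hnf4, since each list stops at a signal value (15.8 pooled, 10.7 in replicate 1 and 8.63 in replicate 2).

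Ncc69 (FBgn0036279, chr3L:12368646-12391444, minus strand), which encodes a cotransporter that carries sodium, potassium and chloride into the cell together, had a peak at its own start. The summit was 48 bp downstream of a TSS, inside the 5′ UTR, at chr3L:12391198-12391593. Its signal value was 103 pooled, 75.3 in replicate 1 and 35.3 in replicate 2, with ranks of 3322, 2840 and 4382, so it was among the 5817 strongest regions of both. A further 13 pooled regions had values from 16.0 to 47.0, all below the optimal list, and none lay farther than 7954 bp from an Ncc69 TSS. The gene thus had 5.22 pooled regions per 10 kb, a density reached by 20.8% of genes. Inside the gene, at about 16.8 kb from its start, both replicates listed a region (31.6 in replicate 1 and 26.3 in replicate 2) while the pooled list had none there.

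ZnT35C (FBgn0028516, chr2L:15228728-15247714, minus strand), a zinc transporter of the tubule that moves zinc out of the cytoplasm, had no optimal peak. Its single pooled region, 503 bp upstream of a TSS, had a signal value of 20.0, in the weaker part of a list whose median was 29.5. Replicate 1 listed 3 regions in the same upstream flank at 22.4, 22.2 and 14.1, and replicate 2 listed 1 at 36.3. That replicate 2 region ranked 4196, overlapped a replicate 1 region and no pooled region, and lay 77 bp upstream of the TSS of the neighbouring gene dao. Upstream regions at ZnT35C were thus listed in both replicates, and 3 of the 4 lay nearer to a TSS of dao than to one of ZnT35C. No optimal summit lay within 20 kb of the gene body.

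Among the hormone receptors, Lkr had an optimal peak and CapaR had none. Lkr (FBgn0035610, chr3L:5512421-5529341, minus strand) encodes the leucokinin receptor, by which a neuropeptide acts on stellate cells. Its peak, at chr3L:5511945-5512340, lay 278 bp beyond the 3′ end of the gene and 1283 bp upstream of the TSS of CG34342, with a signal value of 99.0 pooled, 75.0 in replicate 1 and 30.9 in replicate 2. Inside Lkr, an intron region 10046 bp from the TSS had 48.9 pooled, 24.2 in replicate 1 and 19.1 in replicate 2. At the TSS itself, replicate 2 alone listed a region, at 9.84. The strongest Lkr region is thus in a flank shared with another gene, and that over the Lkr start is among the weakest listed in its replicate.

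CapaR (FBgn0037100, chr3L:21558974-21562181, minus strand) encodes the receptor for the Capa peptides, which act on principal cells. Its only region was in replicate 2, 1086 bp upstream of the TSS, at a signal value of 10.3 and rank 23774. Replicate 1 and the pooled list had none. The nearest optimal summit was 6928 bp from the gene body, 67 bp upstream of the TSS of SMC5, at 141.

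Of the genes of purine waste, ry had an optimal peak and Uro had regions in a single replicate. ry (FBgn0003308, chr3R:13032528-13038020, plus strand) encodes xanthine dehydrogenase, which makes urate. The peak, at chr3R:13030584-13030979, was 1746 bp upstream of ry with a signal value of 151 pooled, 79.8 in replicate 1 and 70.4 in replicate 2, and it ranked 1908, 2587 and 1704. It also lay 123 bp upstream of the TSS of CG46280, and CG46281 and l(3)87Df are within 2 kb too. Nothing was listed inside the ry gene itself in any list, and replicate 1 alone had a further region 861 bp upstream at 19.7.

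Uro (FBgn0003961, chr2L:7780085-7781415, plus strand) encodes urate oxidase, which breaks urate down to allantoin. Replicate 2 listed 3 regions around it, at 48.1, 10.7 and 10.2, while replicate 1 and the pooled list had none. The strongest ranked 2915 in replicate 2, lay past the 3′ end of Uro and was 329 bp from the TSS of Brd7-9. Over the whole genome, 227 of the 5817 strongest regions of replicate 2 (3.90%) overlapped no region of replicate 1 or of the pooled list, and the Uro region is one of them. The replicates therefore differ at Uro, and the value at 48.1 has no second measurement behind it. The nearest optimal summit lay 9324 bp from the gene, at 77.0.

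ct (FBgn0004198, chrX:7608428-7678859, plus strand) encodes a homeodomain transcription factor needed to form the tubules and active in several other tissues. At 70.4 kb it is the longest of the 10 genes, and it held 1 optimal peak, in an intron 19551 bp downstream of the nearest ct TSS at chrX:7651669-7651920. The peak had a signal value of 197 pooled, 94.8 in replicate 1 and 98.0 in replicate 2. It ranked 1272 in the pooled list, 1929 in replicate 1 and 1012 in replicate 2. No other gene lies within 2 kb of it.

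The rest of ct carried many weak regions. There were 25 pooled regions in all, and the 24 outside the optimal list had values from 16.5 to 63.1. The region at the first ct TSS, with its summit 74 bp downstream, had 44.8 and ranked 9334, and one 567 bp upstream of an internal TSS had 58.2 and ranked 6883. Allowing for length, ct had 3.36 pooled regions per 10 kb, a density reached by 32.5% of genes. Of the 30 regions of replicate 1 at ct, 12 (40.0%) overlapped one of replicate 2, against 64.6% over all regions, 14 of 19 (73.7%) at Irk1 and 7 of 13 (53.8%) at Ncc69. In the other direction, 11 of the 19 regions of replicate 2 at ct (57.9%) overlapped one of replicate 1, against 61.2% over all regions, 14 of 18 (77.8%) at Irk1 and 8 of 10 (80.0%) at Ncc69. The share at ct was thus under that of all regions by replicate 1 and near it by replicate 2.

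**Figure D2:**
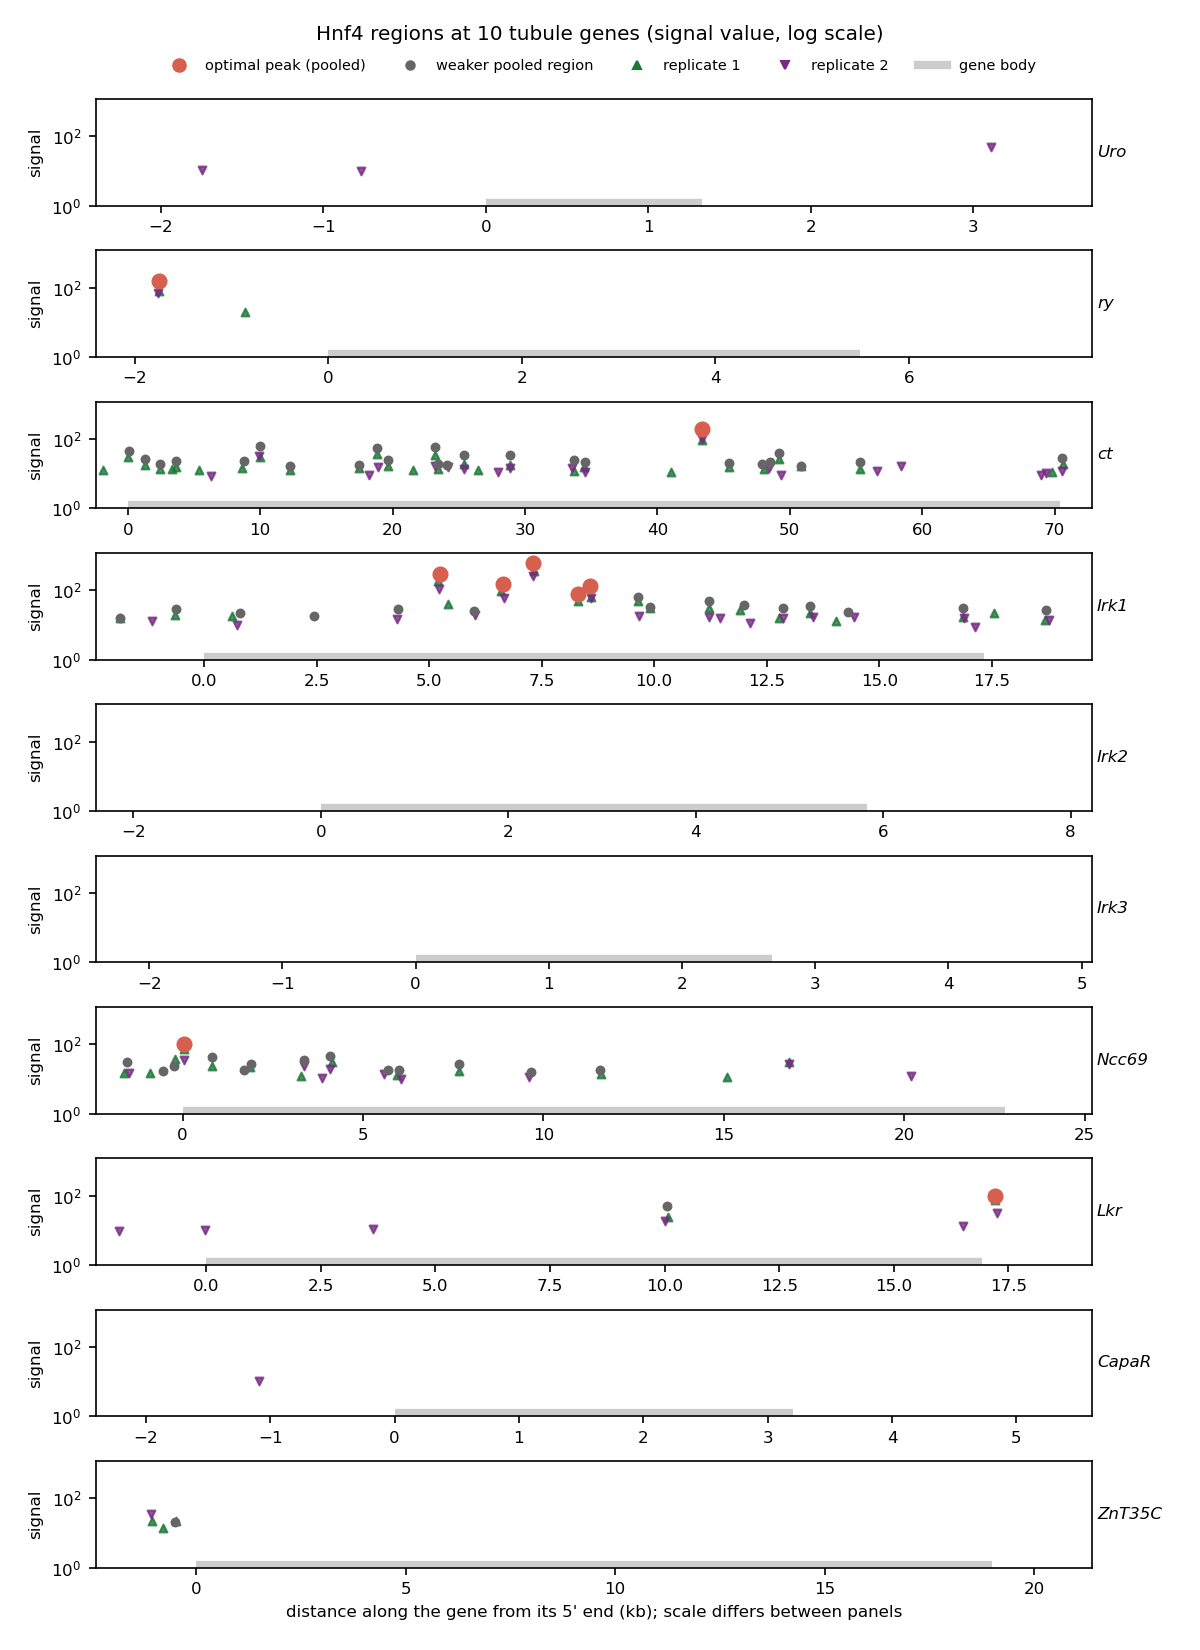
Signal values (log axis) of regions along each of the 10 genes, by distance in kb from the 5′ end of the gene, with optimal peaks as large circles, weaker pooled regions as small circles, replicate 1 and replicate 2 as upward and downward triangles, and the gene body as a grey bar. Irk1 holds 5 optimal peaks between 5.24 and 8.58 kb, ct and Ncc69 hold 1 optimal peak among many weaker regions, and Irk2 and Irk3 are empty.

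Regions of any strength were found at fewer members in replicate 1 than in replicate 2. Relaxed regions were present at 6 of the 10 genes in the pooled list, where 53.3% of all genes had one, at 6 in replicate 1 (56.3% of all genes) and at 8 in replicate 2 (61.0%). The members' shares in the pooled list and in replicate 1 are near those backgrounds, and that in replicate 2 is higher, in a set of only 10 genes. The genes added by replicate 2 were Uro and CapaR. Among the 5817 strongest regions of each replicate, taken to match the size of the optimal list, replicate 1 had regions at 5 members (35.0% of all genes) and replicate 2 at 7 (35.2%). The added genes there were Uro and ZnT35C.

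The optimal peaks themselves were mostly supported by both replicates, which is partly built in, since the optimal list was made from them. Of the 9 member peaks, 8 (88.9%) were among the 5817 strongest regions of both replicates, against 71.0% of all optimal peaks. The median ratio of the replicate 1 to the replicate 2 signal value was 1.46 over the 8 member peaks with a region in both and 1.48 over 5651 optimal peaks. How each list was scaled is not known, so the ratio itself is no difference in enrichment between the replicates. By rank, the Ncc69 and Lkr peaks stood at 2840 and 2858 in replicate 1 and at 4382 and 5180 in replicate 2. The plot of the replicates against each other shows the member peaks within the cloud of all optimal peaks.

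**Figure D3:**
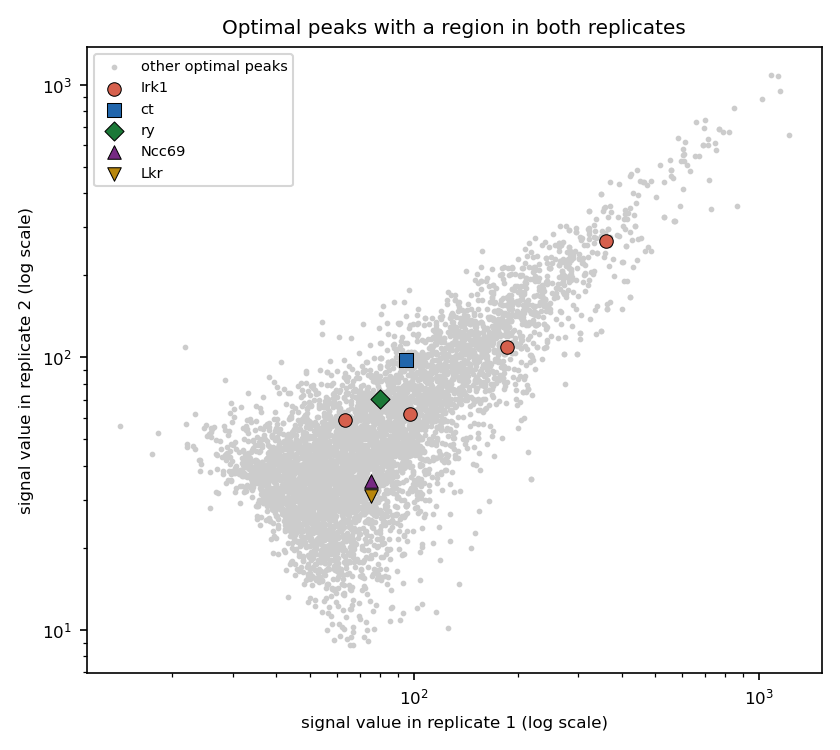
Signal value in replicate 1 (x axis, log scale) against that in replicate 2 (y axis, log scale) for the 5651 optimal peaks with a region in both, grey, with the 8 member peaks coloured by gene. The strongest Irk1 peak (361 and 267) lies near the upper end, and the Ncc69 and Lkr peaks lie lowest of the 8 on the replicate 2 axis.

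The places of the 9 member peaks are given as a description, with no test. Of the 9 summits, 3 (33.3%) lay within 1000 bp of any TSS, against 53.7% of the 5803 optimal summits on nuclear chromosomes. These were the Irk1 peak 321 bp upstream of a TSS, the Ncc69 peak and the ry peak, the last being near CG46280 and not near ry. Of the member peaks, 6 of 9 (66.7%) were under 396 bp, the most common width in this list, against 47.4% of all. Irk1 carries that count, since 5 of the 6 are its clustered peaks (164 to 348 bp), and of the other genes ct alone has a peak under 396 bp, at 252 bp. The median G and C content within 100 bp of the summit was 40.3% at the members and 36.8% at all optimal summits, and ranged at the members from 29.4% to 48.8%.

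Few motifs were found under the summits. Searched on both strands within 100 bp, the Hnf4 site CAAAGTCCA was at none of the 9 summits, against 1.05% of optimal summits and 0.364% of weaker pooled summits. Its shorter form AAGTCCA, contained in CAAAGTCCA, was at the ry summit alone (3.65% of optimal summits), and the nuclear receptor core letters AGGTCA was at the strongest Irk1 summit alone (3.41%). The capitals in the ry and Irk1 sequences above mark those letters. AGATAAG, which zinc finger factors of the serpent family bind, was at 0 of the 9 (2.93% of optimal summits). The DREF site TATCGATA (4.03%) and the GAGA factor site GAGAGAG (6.07%) were also at 0, as were GGTCACAC, the site of Motif 1 of fly core promoters (2.10%), and the Hnf4 direct repeat (0.707%). Motifs this rare would seldom be met in 9 windows, so their absence says only that the letters are not there.

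Letters matching the Hnf4 direct repeat were present elsewhere in 4 of the members, away from their optimal peaks. By the same 2 kb rule, 7.93% of genes hold one and 13.4% hold a CAAAGTCCA, which none of the 10 genes did in windows totalling 205 kb. The members' windows are long. Per length, the direct repeat occurred 1.95 times per 100 kb at the members and 0.868 times per 100 kb on the chromosome arms. The members' rate rests on 4 sites and was not tested. The 4 matches are printed because they can be set against the regions: capitals mark the match and 15 bases are shown on either side, in dm6 on the plus strand. They lie in a coding exon of ry (chr3R:13035395-13035407), the upstream flank of Irk1 (chr3R:23167157-23167169), an intron of Ncc69 (chr3L:12379102-12379114) and an intron of ZnT35C (chr2L:15229406-15229418).
ry exon: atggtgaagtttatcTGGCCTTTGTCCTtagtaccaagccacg
Irk1 flank: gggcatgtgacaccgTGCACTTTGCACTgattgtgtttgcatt
Ncc69 intron: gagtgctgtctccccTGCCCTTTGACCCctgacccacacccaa
ZnT35C intron: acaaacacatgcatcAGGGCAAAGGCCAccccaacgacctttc

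The distance from these matches to the nearest optimal summit was 4619 bp for ry, 6389 bp for Irk1, 12288 bp for Ncc69 and 42595 bp for ZnT35C. The Irk1 match lay 12 bp from a weak replicate 2 summit of 12.7. The nearest pooled summit to it, at 524 bp, had 28.3. None of the 4 matches thus lay under an optimal peak.

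Wider lists of genes with roles in the tubule gave shares in the same range. Like the 10 members, these lists were chosen with earlier results of these data known. By the 2 kb rule, an optimal peak was found at 19 of 35 genes of ion and water transport (54.3%). Diuretic and antidiuretic signalling had 8 of 19 (42.1%), and the urate and molybdenum cofactor enzymes had 6 of 14 (42.9%). The tubule development factors had 9 of 14 (64.3%) and a pigment list had 6 of 11 (54.5%). The pigment list holds genes of precursor transport and synthesis and others of pigment granule traffic. The nephrocyte list, for the other excretory cell of the larva, had 6 of 9 (66.7%). The lists share genes with the 10 members, 5 of them in the transport list, and differ in gene length. Among genes of at least 10 kb, a peak was found at 9 of 15 in transport, 7 of 15 in signalling, 6 of 6 in development, 4 of 6 in the nephrocyte list, 1 of 1 in urate and 0 of 1 in pigment, beside 57.0% of all such genes. Among shorter genes, it was found at 10 of 20 in transport, 1 of 4 in signalling, 3 of 8 in development, 2 of 3 in the nephrocyte list, 5 of 13 in urate and 6 of 10 in pigment, beside 29.1% of all such genes. With the gene body alone, the counts fell to 1 for urate, 11 for transport, 5 for signalling and 3 for pigment. Development fell to 6 and the nephrocyte list to 4. The other genes called have their optimal summits in a flank only. The share of all genes with the gene body alone is not given here.

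Within transport, the partners of Ncc69 were mixed. The kinase fray, which Wnk and the scaffold protein Mo25 activate, controls cation chloride cotransporters. fray held 5 optimal peaks, the strongest at 321 pooled, 178 in replicate 1 and 135 in replicate 2, and Mo25 held 2, the strongest at 329 with CG4101 as the nearest gene by TSS. Wnk itself and the cotransporters NKCC and kcc had no optimal peak, so 3 of these 6 genes had one. Of the 6, 5 are at least 10 kb long, and 57.0% of all such genes have a peak. Wnk, NKCC, kcc and this grouping were chosen after the values were seen. ZnT63C, another zinc transporter, held 3 optimal peaks, where ZnT35C had none. The strongest had a value of 256, with CG14968 as the nearest gene by TSS. The chloride channel gene ClC-c and the aquaglyceroporin gene Eglp4 had none either.

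Within signalling, peaks were found at 5 of 6 effectors, 2 of 5 peptides and 1 of 8 peptide and amine receptors, in groups also made after the values were seen. The effectors include Gyc76C, a membrane guanylate cyclase of the receptor type, whose peak (83.3 pooled) has CG42637 as the nearest gene by TSS. Placing Gyc76C with the receptors would raise their share and lower that of the effectors. All 6 effectors, 3 of the 5 peptide genes and 6 of the 8 receptors are at least 10 kb long, where 57.0% of all genes have a peak, beside 29.1% of shorter genes. The median length was 38.8 kb for the effectors and 13.4 kb for the receptors. norpA, a phospholipase C, had the highest value at 1024 pooled, 516 in replicate 1 and 508 in replicate 2. for, a cGMP-dependent protein kinase, followed at 774, 424 and 353 with 5 optimal peaks. The peptide gene ITP (156) and the phospholipase C gene Plc21C (115) followed, and the peptide gene Capa had none, like its receptor gene CapaR. Lkr was the only one of the 8 receptors with a peak, and at 99.0 it was far below norpA and for.

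Among the urate enzymes, the peak at ry (151) stood beside those of Aprt, which salvages adenine (174, with Tmhs nearest), and cin, needed to make the molybdenum cofactor that xanthine dehydrogenase uses (133, 90 bp upstream of its own TSS). CG30016 had 114. The aldehyde oxidases AOX1 and AOX2 had none. In the development list, where ct belongs, fkh reached 712, tup 467, with CG10602 nearest, and the EGF-like ligand gene spi 267. Hnf4 itself reached 262 with 9 optimal peaks, against 197 at ct, and byn and esg had none. The strain carries an inserted Hnf4 transgene, and whether it adds to the regions at Hnf4 was not tested. In the pigment list p reached 535, with CG8036 nearest, and ltd (Rab32 in the annotation) 345, with Rme-8 nearest. There or reached 337, with CG34213 nearest, and cn 147, with CG46385 nearest, while bw and ca had none. Thus w, st and bw, the transporter genes of that list, all lacked a peak, w and st being named after the values were seen. In the nephrocyte list Amnionless reached 597, with CG3625 nearest, and kirre 448, with CG3603 nearest. In that list pyd reached 441 and Dys 255, and Cubn and Klf15 had none. In 5 of the 6 pigment genes with a peak and 4 of the 6 urate genes, another gene's TSS was nearer to the strongest summit, as at ry and Lkr. The same held for 3 of the 6 nephrocyte genes with a peak and 2 of the 9 development genes.

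**Figure D4:**
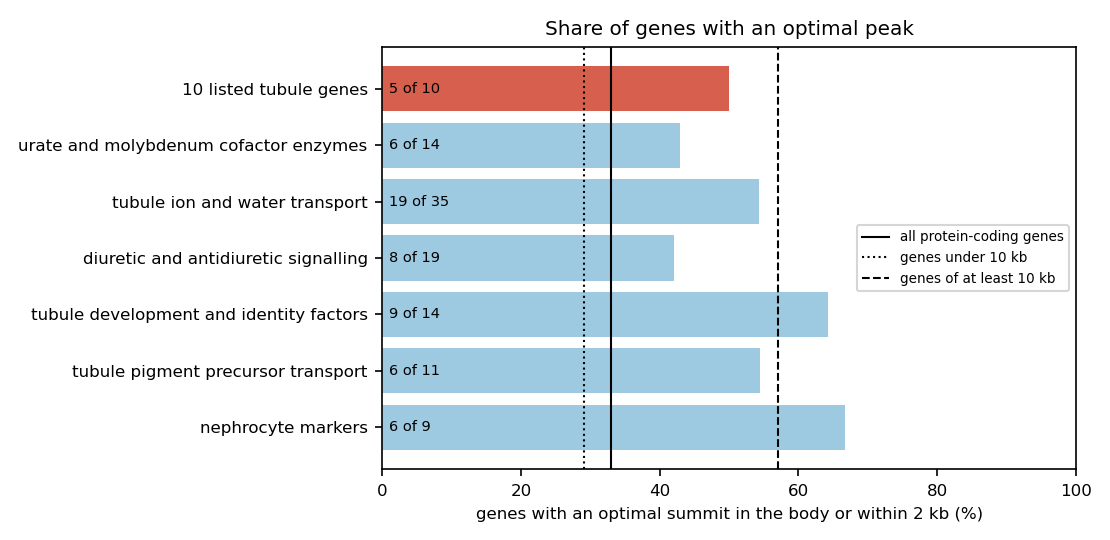
Share of genes (%, bars from 0) with an optimal summit in the body or within 2 kb, for the 10 listed genes and 6 wider lists, with the count written in each bar and vertical lines for all protein-coding genes (33.0%), genes under 10 kb (29.1%) and genes of at least 10 kb (57.0%). The 10 listed genes, at 50%, lie within the range of the other lists, 42.1% to 66.7%.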

How the data were processed

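Regions came from 4 lists in the dm6 build, per the deposited file descriptions. They are the relaxed regions of each of the 2 replicates and of the pooled replicates, and the optimal list that the irreproducible discovery rate made from these, with one control for both replicates. The signal value of each region was deposited by the authors, and its normalization is not given in the sources used here, nor are aligner and caller. Signal values of the replicates are set side by side and compared by rank, since how each list was scaled is not known. The summit is the deposited offset added to the region's start, and positions are 1-based. Lists in dm3 were not used, because the annotation is of another build.

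Genes and transcripts came from Ensembl release 115 and sequence from the RefSeq Release 6 genome. A gene was called when a summit lay in its body or within 2 kb. Replicate support needed an overlap of 1 bp. Python 3.11.15, numpy 2.4.6, pandas 2.3.3 and matplotlib 3.10.9 were used, and the counting was checked on simulated regions. All 10 members were named, with up to 4 genes of highest signal value and up to 2 without a peak from each wider list. The members and lists were chosen with earlier results of these data known. No test was made over them, and depth is unknown. Alternatives were other distances, stricter or relaxed regions, each replicate alone, other gene models and other motif windows.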

Additional observations from a re-analysis of the deposited data

How the results depend on the processing

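The 5 members with an optimal peak became 3 when only the gene body counted (7 peaks), 2 when the summit had to lie within 1 kb of a member's TSS (2 peaks), 3 when only the stronger optimal peaks, split at the median, counted and 3 when the member had to own the nearest TSS. The shares of all genes under these stricter rules are not given here. The 33.0% of all genes belongs to the 2 kb rule only, so these counts have no background beside them. With pooled relaxed regions the 9 peaks became 63 regions. Leaving out one replicate gave 5 to 7 members and 10 to 11 regions among the 5817 strongest, with Uro and ZnT35C added by replicate 2 alone. AGGTCA was at 0 summits within 50 bp and 2 within 250 bp, while AGATAAG was at 1 summit within 250 bp, as was each of the sites GAGAGAG and GGTCACAC. With the gene body alone, the lists fell to 1 of the urate genes (from 6), 11 of transport (from 19), 5 of signalling (from 8) and 3 of pigment (from 6). The other 39 values stayed within 1.5 times the reported value. Among these 39 were, with the gene body alone, development at 6 (from 9) and the nephrocyte list at 4 (from 6). ry and Lkr have no optimal summit inside the gene, which is why they drop out of the gene-body count. No paired analysis was possible because the series has a single group. Depth is unknown, so weak and missing regions cannot be told apart by precision, and whole larvae do not show which tissue a region comes from.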
